A study of Mus musculus with 10 samples.

Results

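TRBD1 and TRBD2 are the diversity (D) genes of the mouse T cell receptor beta chain, and their use was described here in the beta junctions of splenic regulatory T (Treg) cells. Members were table entries whose CDR3 protein sequence ended in the residues of a TRBJ gene and for which the deposited table placed a D match. Of 387286 entries in all, 193012 had a beta end (TRB entries), and 185984 of these (96.4%) carried a D match. TRBD1 was named in 119899 (62.1% of TRB entries) and TRBD2 in 66085 (34.2%), while 7028 (3.64%) had no D match and served for comparison.

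The libraries came from Treg cells isolated directly from the spleen of untreated mice. Foxp3 is the lineage-defining transcription factor of these cells, and CNS4 is a distal enhancer of its gene. The 5 CNS4KO libraries came from mice that lack CNS4. The 5 CNS4Flox libraries came from mice carrying the loxP-flanked enhancer, whose treatment label reads WT. The ages of the mice, the sorting markers and the number of cells are not given in the sources used here, and receptor sequences hold no marker with which to check the cell type. The labels do not say that each library came from a separate mouse, so the p-values below measure the spread between these samples.

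A beta chain gene is assembled in a pair of steps. A D gene is first joined to a J gene, and a V gene is then joined to that DJ unit. At each joint, nucleases remove bases from the gene ends and terminal transferase adds bases without a template, so the D gene is left as a short core in the middle of the CDR3, the loop that contacts peptide. The mouse locus holds the TRBJ genes in 2 clusters, each behind a D gene. Joining by deletion can bring TRBD1 to either cluster, whereas TRBD2 lies downstream of the TRBJ1 cluster and is brought by deletion to TRBJ2 genes.

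In RefSeq's annotation of GRCm38, the assembly that mm10 denotes, the D gene TRBD1 lies at chr6:41533201-41533212 and TRBD2 at chr6:41542163-41542176. Between TRBD1 and TRBJ1-1 there are 651 bases, between TRBJ1-6 and TRBD2 6556 bases, and between TRBD2 and TRBJ2-1 577 bases. All 14 D and J genes named here were found in that annotation, as D or J segments. The germline D genes below were put together from the matched parts in the deposited tables, since no table of germline D sequence was used, and their lengths equal the annotated lengths of 12 and 14 bases. They are shown in 5′ to 3′ direction, with a capital at the base that differs.

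TRBD1: gggacAgggggc
TRBD2: gggacTgggggggc

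Counted from the 5′ end, the difference is A6T (TRBD1 has A at position 6 and TRBD2 has T), and TRBD2 has 2 more G in the run that follows, 7 against 5. A trimmed part that lies within the shared letters cannot tell the genes apart. The next sequences are whole CDR3 coding sequences, from the conserved cysteine codon to the J gene's phenylalanine codon, with the matched D part in capitals. They are the entries found in most libraries with at least 9 matched bases and the most abundant such entry of each group, by its share of a library's TRB counts.

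TRBD1, TRBV15 to TRBJ1-1: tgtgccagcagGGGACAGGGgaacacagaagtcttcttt
TRBD1, TRBV26 to TRBJ1-6: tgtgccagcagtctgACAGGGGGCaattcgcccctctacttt
TRBD1, TRBV31 to TRBJ2-7, most abundant in CNS4KO: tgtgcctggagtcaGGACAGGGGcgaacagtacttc
TRBD1, TRBV31 to TRBJ2-7, most abundant in CNS4Flox: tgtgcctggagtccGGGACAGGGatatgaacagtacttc
TRBD2, TRBV12-1 to TRBJ2-7: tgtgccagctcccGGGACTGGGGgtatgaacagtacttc
TRBD2, TRBV31 to TRBJ2-7: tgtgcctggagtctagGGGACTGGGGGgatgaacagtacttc
TRBD2, TRBV2 to TRBJ2-5, most abundant in CNS4KO: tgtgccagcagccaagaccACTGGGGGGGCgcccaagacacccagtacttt
TRBD2, TRBV2 to TRBJ2-5, most abundant in CNS4Flox: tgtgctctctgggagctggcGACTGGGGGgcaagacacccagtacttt
No D match, TRBV26 to TRBJ2-4: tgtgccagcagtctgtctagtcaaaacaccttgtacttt
No D match, TRBV31 to TRBJ2-4: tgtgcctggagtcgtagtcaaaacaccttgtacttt

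Among entries with at least 9 matched bases, the 2 TRBD1 junctions found in most libraries were each present in 4 libraries, and the 2 TRBD2 junctions in 5 libraries. The 2 junctions without a D match were in 5 libraries, and all 6 were at counts of 1 to 5 per library. At that length, the most abundant TRBD2 junction of the CNS4KO group had a count of 240 in replicate 3, 0.954% of that library's TRB counts, and was found in no other library. Its counterpart in the CNS4Flox group had a count of 75 in replicate 5. In that entry the matched V part ended 15 bases before the D part, so most of the letters left of the capitals were not covered by the V gene it was named for. The most abundant TRBD1 junctions with at least 9 matched bases had counts of 72 in CNS4KO replicate 2 and 28 in CNS4Flox replicate 3. Over all matches, shorter parts included, the largest counts were 506 for TRBD1 and 366 for TRBD2 in CNS4KO, and 42 and 137 in CNS4Flox. Whether clone size goes with matched length was not tested.

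The libraries held 61793 to 95853 counts in all and 19199 to 34833 TRB counts in 13786 to 24496 TRB entries. Each entry was counted once unless counts are named, so an expanded clone weighed no more than a rare one. One pair of libraries, CNS4KO replicate 5 and CNS4Flox replicate 3, shared 821 TRB entries with the same V, J and CDR3 nucleotides, against 96 to 262 in the other 44 pairs. Of the 821, 514 were TRBD1, 258 TRBD2 and 49 without a D match. The values compared between the groups, the tested within-library differences and the D-J pair counts were also computed without both libraries. The other descriptions keep all 10 libraries.

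How a D name was given bears on every value that follows. The deposited D match was as short as 2 bases for TRBD1 and 3 for TRBD2. In 36841 entries (19.8% of D-matched) the matched part occurred in both genes, either strand counted, and all of these were named TRBD1. Thus 30.7% of TRBD1 entries had a part that TRBD2 also holds on either strand. In 4033 of them the part was forward in TRBD1 and reverse in TRBD2, and in 1528 forward in TRBD2 and reverse in TRBD1. In 14848 entries (7.98%) the part occurred only on the reverse strand of a D gene, and 242 of these had at least 7 bases, 0.301% of all matches of that length. The match always stopped at least 1 base before the J part, and 92990 entries (50.0%) had a distance of exactly 1. Of the forward matches at that distance, 57.2% went on in the D gene at the next base, against 2.59% at a distance of 2 or more.

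Alpha chains have no D gene, and the tables listed 190746 entries with an alpha J end under beta gene names. A D match was placed in 99.8% ± 0.0283 (SD, n = 10 libraries) of these alpha entries, more than the 96.4% ± 0.151 of TRB entries. The difference of -3.49 percentage points had the same sign in 10 of 10 libraries (two-sided exact sign-flip test over the libraries, p = 0.00195, the smallest it can give; adjusted p = 0.00249 over 14 comparisons). The presence of a match was thus no higher in TRB than in alpha entries, whereas long matches were more frequent in TRB entries. Matches of at least 7 bases were placed in 41.6% ± 0.538 of TRB entries and 6.11% ± 0.127 of alpha entries, and matches of at least 9 bases in 20.7% ± 0.434 and 0.236% ± 0.0303. TRBD2 was the name in 54.5% ± 0.5263 of matched alpha entries and 35.5% ± 0.470 of matched TRB entries. Results are accordingly given for all matches, as the tables name them, and for matches of at least 7 bases or holding the letters that differ.

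TRBD2 was paired mostly with TRBJ2 genes, while TRBD1 was paired with both clusters. Among D-matched TRBJ1 entries, TRBD2 was named in 8.76% ± 0.369 (SD, n = 10), with library values from 8.24% to 9.51%. Among D-matched TRBJ2 entries it was named in 47.8% ± 0.650, from 47.1% to 49.1%. The clusters did not overlap, and TRBJ1 was lower by 39.0 percentage points on average in 10 of 10 libraries (exact sign-flip test, adjusted p = 0.00249). TRBD1 entries were divided between the clusters, 55.6% ± 1.20 being joined to TRBJ2 genes. TRBJ1 genes made up 31.5% of all TRB entries.

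**Figure D1:**
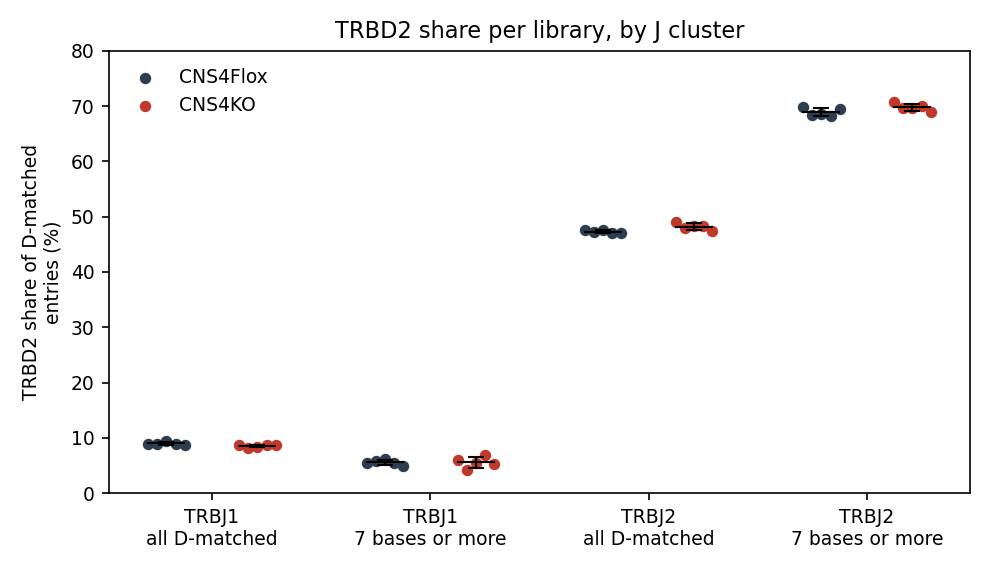
The vertical axis is the share of D-matched TRB entries named TRBD2, in percent; each point is a library, coloured by group, and bars give the mean and SD of the 5 libraries of a group. TRBJ1 entries lie at 8.24% to 9.51% and TRBJ2 entries at 47.1% to 49.1% over all matches, and with at least 7 matched bases they lie at 4.23% to 6.83% and 68.1% to 70.7%.

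The pairing by name varied with the length of the matched part. Parts that both genes hold had 2 to 6 bases and were all named TRBD1, and no TRBD2 match had under 3 bases. The shares at the shortest lengths thus follow the naming, and whether the joining itself varied with trimming was not tested. At 3 matched bases TRBD2 was named in 14.1% of TRBJ1 entries and 16.4% of TRBJ2 entries, pooled over the 10 libraries. At 5 bases the shares were 8.41% and 29.3%, at 7 bases 11.05% and 59.3%, and at 8 bases 5.04% and 63.9%. At 9 bases TRBD2 was named in 31 of 3442 TRBJ1 entries (0.901%, Wilson 95% interval 0.635% to 1.28%) and in 65.3% of TRBJ2 entries. Up to 11 bases, the shares in the J clusters thus lay close together for the shortest parts and far apart for the longest. Parts of 12 or 13 bases were all named TRBD2, since no deposited TRBD1 match was longer than 11 bases, and 4 TRBJ1 entries had one. Intervals of shares cover counting error only.

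**Figure D2:**
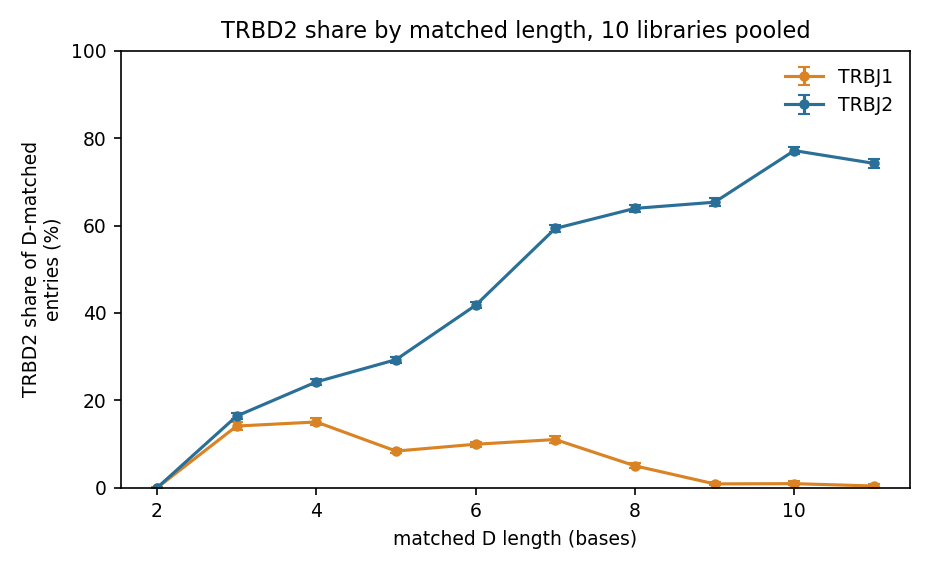
The horizontal axis is the matched D length in bases (2 to 11) and the vertical axis the share of D-matched entries named TRBD2, in percent, over the 10 libraries pooled; bars are Wilson 95% intervals. The lines start together, at 0 for 2 bases, and end at 0.420% for TRBJ1 and 74.2% for TRBJ2 at 11 bases.

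Junctions that keep the letters around position 6 name the gene most directly. The 6 bases at positions 3 to 8 read gacAgg in TRBD1 and gacTgg in TRBD2, and 25134 and 23731 entries held them on the forward strand. Of 11678 such TRBJ1 entries, 45 were TRBD2, or 0.416% ± 0.251 (SD, n = 10 libraries). Of 37187 such TRBJ2 entries, 23686 were TRBD2, or 63.8% ± 0.960. Over TRBJ2 entries, the TRBD2 share was thus 47.8% by the deposited names, 57.2% ± 0.764 among forward parts found in a single D gene, and 63.8% among parts with these 6 bases. In TRBJ1 entries the same 3 ways of counting gave 8.76%, 8.28% ± 0.475 and 0.416%.

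The whole D gene was present in the CDR3 of some entries. Whole TRBD1 was found in 2509 entries in all 10 libraries, 1135 of them TRBJ1 entries, a share of 45.4% ± 3.30 (SD, n = 10). Whole TRBD2 was found in 1445 entries, 2 of them TRBJ1 entries (0.138%, Wilson 95% interval 0.0380% to 0.503%). No CDR3 held both whole genes.

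The TRBD2 names in TRBJ1 entries rested on few letters. Of 5124 such entries, 988 had at least 7 matched bases. In 584 of these 988 (59.1%) the matched part was a run of G alone or a run of G with the final C, letters that lie behind the differing base. Among TRBD2 entries with TRBJ2 genes and at least 7 bases, 7.35% had such a part. Only 28 entries combined TRBD2, a TRBJ1 gene and at least 10 matched bases, and 17 of these had the TRBJ1-6 end described next.

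TRBJ1-6 entries had to be set apart. The name does not occur in the tables, and 6700 of the 6833 entries that end in its residues were named TRBJ2-5, so the J start given for them belongs to another gene. Only 3 of these entries had no D match (0.0373% ± 0.0605 per library, against 2.03% to 5.47% for the other J genes). The matched part was on the reverse strand only in 37.9% of D-matched TRBJ1-6 entries and in 6.84% of the others. TRBJ1-6 entries were left out of the mean numbers of bases between D and J and of the counts of bases lost from the D ends, though not of the distances given above for the naming, and the TRBD2 share of TRBJ1 entries without them was 9.09% ± 0.414.

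By J gene, the TRBD2 share of D-matched entries was 9.68% ± 0.758 for TRBJ1-1, 9.49% ± 0.832 for TRBJ1-2 and 9.57% ± 0.876 for TRBJ1-3. It was 7.99% ± 0.840 for TRBJ1-4, 7.86% ± 1.09 for TRBJ1-5 and 6.24% ± 0.729 for TRBJ1-6. Neighbours in this order overlapped in their library ranges, while the highest library of TRBJ1-6, at 7.17%, lay below the lowest of TRBJ1-1, TRBJ1-2 and TRBJ1-3. In the other cluster TRBJ2-2 was lowest at 34.7% ± 1.42 (library range 33.1% to 36.9%), below every library of every other TRBJ2 gene. TRBJ2-4 stood at 45.9% ± 0.654, TRBJ2-3 at 46.8% ± 1.24, TRBJ2-5 at 47.7% ± 0.927 and TRBJ2-1 at 49.0% ± 1.18, and neighbours in this order overlapped. TRBJ2-7 was highest at 52.2% ± 1.49 (50.97% to 55.3%), and its lowest library lay just below the highest of TRBJ2-1 at 51.01%.

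The order changed in part when at least 7 matched bases were required. TRBJ1-6, lowest of the TRBJ1 genes over all matches, was then highest of them at 7.43% ± 1.91, against 3.27% ± 1.95 for TRBJ1-5 to 6.33% ± 1.18 for TRBJ1-2. TRBJ2-2 stayed lowest of its cluster, at 54.7% ± 2.396 with a highest library of 58.6%, while the other TRBJ2 genes lay between 68.3% ± 1.52 for TRBJ2-3 and 71.9% ± 1.31 for TRBJ2-7. Entries without a D match made up 5.47% ± 0.622 of TRBJ2-2 and 5.46% ± 1.70 of TRBJ1-5 entries, the highest shares, and TRBJ2-7 had the smallest outside TRBJ1-6, 2.03% ± 0.144. As partners, TRBJ2-7 took 29.3% ± 1.49 of TRBD2 entries and 14.8% ± 0.721 of TRBD1 entries, and TRBJ1-1 took 12.9% ± 0.594 of TRBD1 entries and 2.51% ± 0.285 of TRBD2 entries. These orders are descriptions, and no test was run on them.

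**Figure D3:**
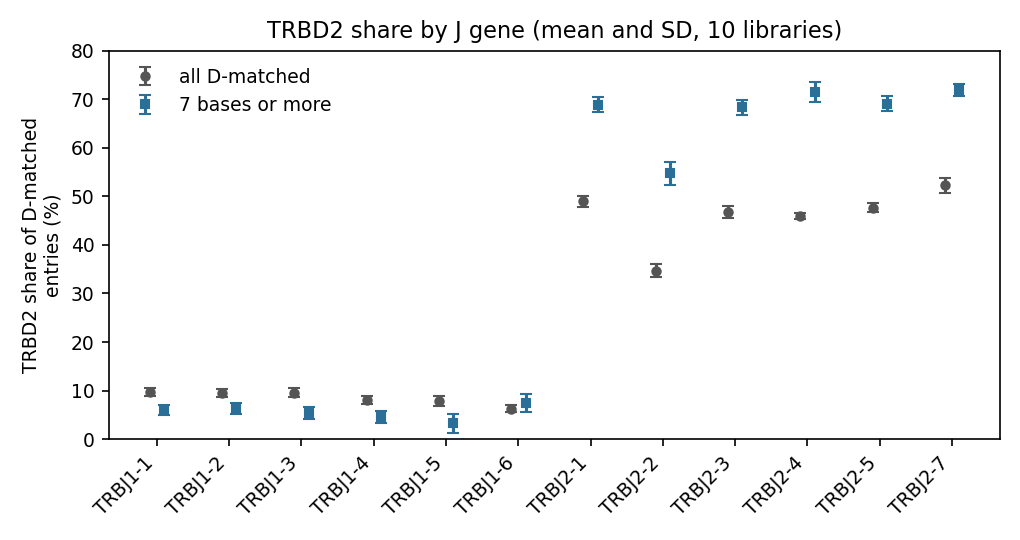
The vertical axis is the share of D-matched entries named TRBD2, in percent, for each of 12 TRBJ genes in their order on the chromosome; circles are all matches, squares matches of at least 7 bases, and bars the SD over 10 libraries. Over all matches TRBJ1 genes lie at 6.24% to 9.68% and TRBJ2 genes at 34.7% for TRBJ2-2 up to 52.2% for TRBJ2-7.

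The V gene joined last also differed between the D genes. Among TRBJ2 entries with at least 7 matched bases, the TRBD2 share had a median of 68.7% over 22 V genes. It was lowest for TRBV29 at 46.2% ± 4.02 (SD, n = 10 libraries, 40.9% to 55.4%) and TRBV26 at 49.6% ± 4.08 (42.6% to 55.6%). It was highest for TRBV4 at 79.0% ± 2.28 (75.9% to 83.8%) and TRBV31 at 77.5% ± 1.46 (75.0% to 79.6%), the V gene that lies beyond the constant genes and joins by inversion. The highest library of TRBV29 or TRBV26 lay below the lowest of TRBV4 or TRBV31. These V genes were chosen after their values were seen, so no test was run.

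**Figure D4:**
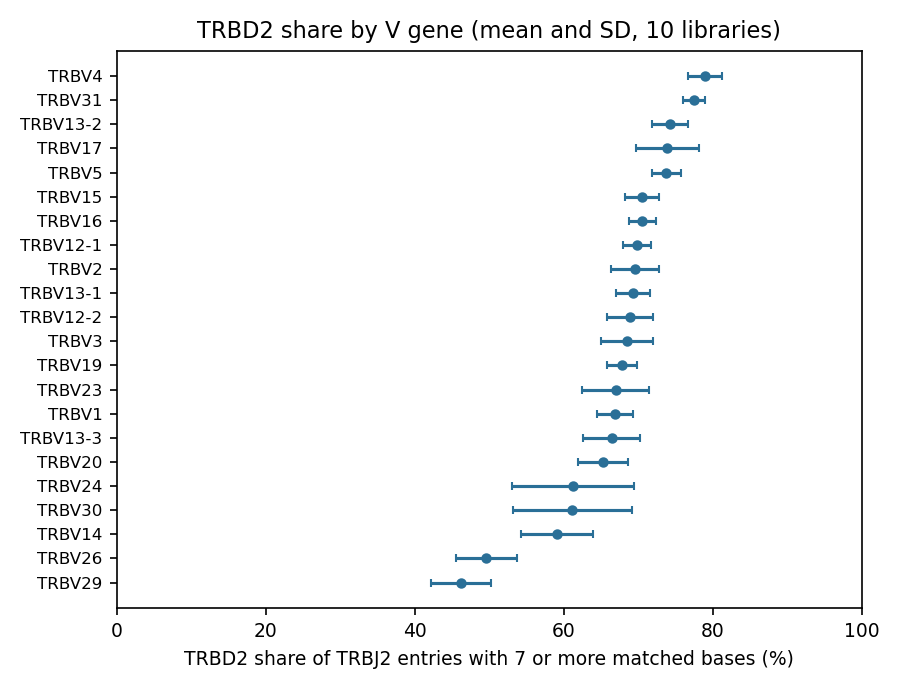
The horizontal axis is the share named TRBD2, in percent, among TRBJ2 entries with at least 7 matched bases, for 22 V genes in order of that share; points are means of 10 libraries and bars the SD. TRBV29 at 46.2% and TRBV26 at 49.6% lie lowest, and TRBV31 at 77.5% and TRBV4 at 79.0% highest.

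Entries named TRBD2 had longer matched D parts than entries named TRBD1. Within TRBJ2 entries, the mean matched length was 5.43 ± 0.0406 bases for TRBD1 and 7.996 ± 0.0504 for TRBD2, a difference of -2.56 bases with the same sign in 10 of 10 libraries (exact sign-flip test, adjusted p = 0.00249). Over all entries the median length was 5 for TRBD1 and 8 for TRBD2, and 35.4% of TRBD1 parts but 10.96% of TRBD2 parts had under 5 bases. The longest matched parts were 11 and 13 bases, each 1 short of its gene. Parts that both genes hold were all named TRBD1 and TRBD2 is the longer gene, and how much each accounts for was not tested. With parts found in a single D gene the difference was -1.59 bases, 6.41 for TRBD1 against 7.996 for TRBD2. With at least 7 matched bases the difference kept its sign, and over all alternatives it lay between -2.59 and -0.80 bases. Each alternative kept the D names, and deposited parts of at least 7 bases could still run to 11 for TRBD1 and 13 for TRBD2. That the sign was kept thus says little beyond the naming and the gene lengths.

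**Figure D5:**
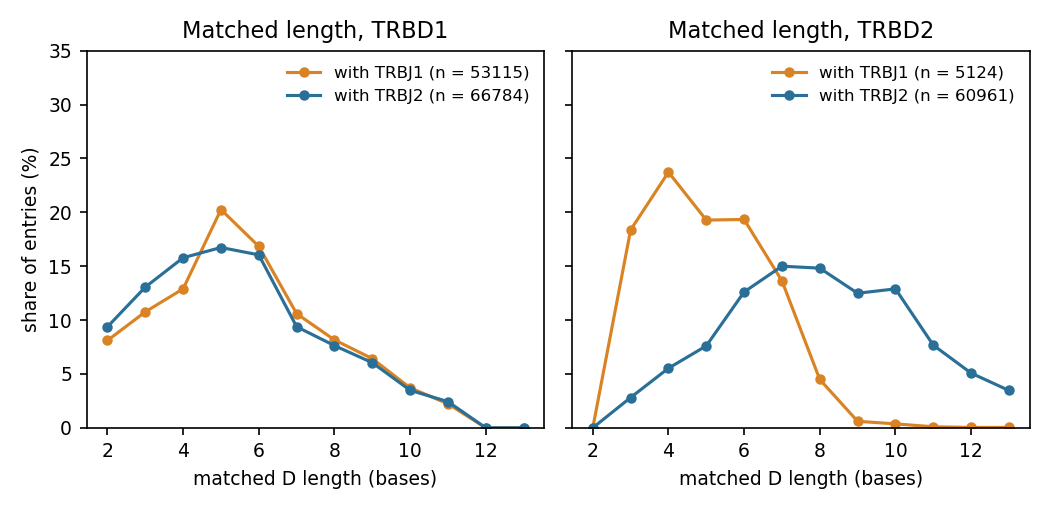
The horizontal axis is the matched D length in bases and the vertical axis the share of entries in percent, for TRBD1 (left) and TRBD2 (right), each with TRBJ1 and with TRBJ2 genes, over the 10 libraries pooled. TRBD1 lengths follow nearly the same course with both clusters, whereas TRBD2 lengths with TRBJ1 genes (5124 entries) lie at 3 to 8 bases, with few entries at 9 or more.

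The loops of entries named TRBD2 were longer. Mean CDR3 length within TRBJ2 entries was 13.4 ± 0.0269 residues for TRBD1 and 14.3 ± 0.0242 for TRBD2, a difference of -0.82 residues in 10 of 10 libraries (adjusted p = 0.00249, exact sign-flip test). That difference kept its sign and its call under every alternative, between -0.82 and -0.49 residues, though each alternative still grouped entries by the D names. With parts found in a single D gene, which leaves out the parts named TRBD1 by default, it was -0.598 residues. Bases between V and D averaged 1.34 ± 0.0117 for TRBD1 and 1.59 ± 0.0367 for TRBD2, and bases between D and J 2.07 ± 0.0291 and 2.03 ± 0.0149 (both adjusted p = 0.00249, exact sign-flip test). The deposited match stopped at least 1 base before J, so the J-side means have a floor that the V-side means lack. With the matched part carried on towards J while the D letters continued, the J-side means were 1.81 and 1.73. Neither the V-side nor the J-side difference held on longer parts. With at least 7 matched bases, TRBD1 minus TRBD2 was 0.0498 bases on the V side (adjusted p = 0.0246) and -0.0170 on the J side (adjusted p = 0.228, exact sign-flip tests).

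Within TRBD1, junctions with TRBJ1 and TRBJ2 genes were compared in the same way. CDR3 length was 13.7 ± 0.0170 residues with TRBJ1 and 13.4 ± 0.0269 with TRBJ2, a difference of 0.279 in 10 of 10 libraries (adjusted p = 0.00249, exact sign-flip test) that kept its sign and call under every alternative. The annotated J genes run from 47 bases (TRBJ2-7) to 53 bases (TRBJ1-6), and how much J length accounts for was not tested. Bases between D and J were fewer with TRBJ1, 1.95 ± 0.0346 against 2.07 ± 0.0291, again in 10 of 10 libraries (adjusted p = 0.00249, exact sign-flip test). With the matched part carried on towards J, these means were 1.63 with TRBJ1 and 1.81 with TRBJ2. Bases between V and D were 1.92 ± 0.0427 with TRBJ1 and 1.34 ± 0.0117 with TRBJ2 (adjusted p = 0.00249, exact sign-flip test). Without TRBJ1-6 entries the V-side difference was 0.0179 bases in place of 0.588, and with at least 7 matched bases it was -0.0442 (adjusted p = 0.0621, exact sign-flip test). Matched length, 5.61 ± 0.0249 with TRBJ1 and 5.43 ± 0.0406 with TRBJ2, turned its direction likewise, to -0.0563 bases with at least 7 matched bases (adjusted p = 0.00608, exact sign-flip test). Without TRBJ1-6 entries the matched length difference was 0.0974 bases in place of 0.178.

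Bases lost from the D ends were counted in forward parts with at least 7 deposited matched bases and a single place in a single gene, carried on towards J while the D letters continued. TRBD1 with TRBJ1 genes (14490 entries) had lost 1.43 ± 0.0372 bases at the 5′ end and 1.89 ± 0.0523 at the 3′ end, and TRBD1 with TRBJ2 genes (19273 entries) 1.49 ± 0.0437 and 1.82 ± 0.0404. TRBD2 with TRBJ2 genes (43409 entries) had lost 2.45 ± 0.0289 and 2.09 ± 0.0356 bases. The 5′ end was intact in 40.3% ± 0.674, 39.4% ± 1.10 and 22.4% ± 0.795 of these sets, and the 3′ end in 21.7% ± 1.61, 24.7% ± 1.07 and 22.6% ± 0.753. Since a part of 7 bases leaves less to lose in the shorter gene, the losses of the genes are not compared by a test. The 763 entries named TRBD2 with TRBJ1 genes were counted as having lost 5.65 ± 0.236 bases at the 5′ end and 0.920 ± 0.178 at the 3′ end, and 1.89% ± 2.16 had an intact 5′ end. Of all 988 TRBJ1 entries named TRBD2 with at least 7 matched bases, 59.1% matched only G or G with the final C. Such parts lie behind the differing base, so a large 5′ loss is counted by their place. Whether they come from TRBD2 was not tested.

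Few junctions lacked added bases on both sides of D. In the same long parts, no base lay between V and D in 26.0% ± 0.579 of TRBD1 entries with TRBJ1 genes, 25.8% ± 0.630 of TRBD1 entries with TRBJ2 genes and 27.6% ± 0.775 of TRBD2 entries with TRBJ2 genes. No base lay between D and J in 33.4% ± 1.82, 27.9% ± 0.988 and 26.4% ± 0.704. Both sides were free of added bases in 7.88% ± 1.02, 6.77% ± 0.543 and 6.74% ± 0.341. The mean number of bases between D and J was 1.52 ± 0.0529, 1.68 ± 0.0377 and 1.73 ± 0.0301 in the 3 sets.

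Each D gene can be read in 3 frames, and none of the frames of these 2 genes has a stop codon. Over parts with a single place in a single gene (67.7% of TRBD1 and 91.7% of TRBD2 entries), TRBD1 was read as glycine-threonine-glycine-glycine in 34.6% ± 0.819, as aspartate-arginine-glycine in 32.0% ± 0.421 and as glycine-glutamine-glycine in 33.4% ± 0.514. TRBD2 was read as glycine-threonine-glycine-glycine in 30.9% ± 0.681, as aspartate-tryptophan-glycine-glycine in 36.2% ± 0.614 and as glycine-leucine-glycine-glycine in 32.9% ± 0.427. The aspartate-tryptophan frame was the most used in TRBD2, its lowest library at 35.1% lying above the highest of the other frames at 33.6%. Within TRBD1 the aspartate-arginine frame took 29.6% ± 0.581 with TRBJ1 genes (28.8% to 30.5%) and 34.0% ± 0.6251 with TRBJ2 genes (32.7% to 34.7%), with no overlap.

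The residues in the middle of the loop, taken between the first 4 and the last 5, differed between the D names. These names were given by bases in the same stretch, so the contrasts describe the named classes and in part repeat the naming. Tryptophan, a large aromatic residue, was present in 32.2% ± 0.608 of TRBD2 entries, 3.31% ± 0.153 of TRBD1 entries and 0.504% ± 0.283 of entries without a D match. Glycine, the smallest residue, was present in 89.1% ± 0.5258, 70.0% ± 0.494 and 18.5% ± 1.25. Leucine was present in 44.7% ± 0.766 of TRBD2 and 26.5% ± 0.880 of TRBD1 entries. Arginine, which is positively charged, was more frequent with TRBD1, 37.7% ± 0.254 against 25.4% ± 0.624, as was glutamine, 38.5% ± 0.772 against 29.2% ± 0.707. The library ranges of TRBD1 and TRBD2 did not overlap for any of these 5 residues, which were chosen after their values were seen. They did not overlap for the other residues counted either. Those were aspartate (29.1% in TRBD1 and 32.4% in TRBD2 entries), threonine (27.6% and 23.7%) and alanine (27.0% and 31.2%). Presence was not corrected for loop length.

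Entries without a D match were short and often shared. Their CDR3 averaged 11.7 ± 0.0530 residues against 13.8 ± 0.0220 for D-matched entries, a difference of -2.15 in 10 of 10 libraries (adjusted p = 0.00249, exact sign-flip test), and 1.63 ± 0.0492 bases lay between V and J. A part of 2 bases sufficed for a match, so entries with few bases between V and J were least able to hold one. The grouping itself thus favours short loops among unmatched entries, and the test says little beyond it. TRBJ2 genes were used in 62.7% ± 2.46 of the entries without a D match. In an average library 22.0% ± 1.65 of these entries were also found in another library, against 6.66% ± 1.06 of TRBD1 and 5.53% ± 1.01 of TRBD2 entries. The lowest library without a D match, 19.7%, lay above the highest for TRBD1, 8.72%. Of 6181 distinct junctions without a D match, 698 (11.3%) were in at least 2 libraries, and of 115602 TRBD1 and 64142 TRBD2 junctions, 3.28% and 2.75% were. The pair of libraries that shared the most entries was kept in these shares.

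Clone sizes differed little between the D genes. The mean deposited count per entry within TRBJ2 entries was 1.40 ± 0.182 for TRBD1 and 1.37 ± 0.175 for TRBD2, higher for TRBD1 by 0.0273 in 8 of 10 libraries (exact sign-flip test, adjusted p = 0.0442). This call was lost in 8 of the 10 fits that left out a library, namely all but those without CNS4KO replicate 4 and without CNS4Flox replicate 3, and over the 10 fits the difference ranged from 0.0196 to 0.0342. Without entries of count 1 the difference was -0.0630 (adjusted p = 0.221, exact sign-flip test). Entries without a D match averaged 1.46 ± 0.179 counts and D-matched entries 1.38 ± 0.188, a difference of 0.0753 in 8 of 10 libraries (adjusted p = 0.00911, exact sign-flip test). That difference was -0.00844 without entries of count 1 (adjusted p = 0.895, exact sign-flip test). TRBD1 junctions in TRBJ1 and TRBJ2 entries had mean counts of 1.39 ± 0.226 and 1.40 ± 0.182 (adjusted p = 0.711, exact sign-flip test).

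Among the 100 most abundant TRB entries of a library, 63.7 ± 4.16 were TRBD1, 31.5 ± 3.14 TRBD2 and 4.80 ± 1.55 had no D match. TRBD1 held 62.4% ± 0.577 of TRB counts and 62.1% ± 0.417 of TRB entries, and TRBD2 33.8% ± 0.621 and 34.2% ± 0.480. Entries with a count of 1 made up 79.0% ± 6.38 of TRBD1, 80.3% ± 5.82 of TRBD2 and 74.7% ± 6.67 of entries without a D match.

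CNS4KO and CNS4Flox libraries were compared to ask whether D use differed without the enhancer. None of 26 values passed an adjusted p of 0.05 (two-sided exact permutation tests over all assignments of the libraries, Benjamini-Hochberg over the 26 values). With 5 libraries a group the smallest p is 0.00794, and at least 5 of the 26 values would have had to reach it for any to pass. It was reached by 4 values, each with an adjusted p of 0.0516. TRBD1 made up 64.4% ± 0.344 of D-matched entries in CNS4KO and 64.6% ± 0.589 in CNS4Flox (n = 5 each, exact permutation test, adjusted p = 0.619). The share of TRB entries with a D match was 96.3% ± 0.119 and 96.4% ± 0.151 (exact permutation test, adjusted p = 0.344).

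The TRBD2 share of D-matched TRBJ1 entries was one of the 4 values. CNS4KO replicates 1 to 5 stood at 8.63%, 8.24%, 8.27%, 8.63% and 8.67%. CNS4Flox replicates 1 to 5 stood at 8.94%, 8.95%, 9.51%, 8.96% and 8.77%. All CNS4KO libraries lay below all CNS4Flox libraries, with means of 8.49% ± 0.211 and 9.03% ± 0.283. With parts found in a single D gene the groups again did not overlap, at 11.6% ± 0.249 and 12.3% ± 0.352. They overlapped without entries of count 1, at 8.19% ± 0.454 and 8.96% ± 0.779 (exact permutation test, p = 0.0873), with forward parts only, at 6.75% ± 0.430 and 7.08% ± 0.351 (exact permutation test, p = 0.206), and with longer parts. With at least 7 matched bases the means were 5.56% ± 0.962 and 5.57% ± 0.478 (exact permutation test, p = 1), and with the 6 bases around position 6 they were 0.406% ± 0.366 and 0.427% ± 0.0885 (exact permutation test, p = 0.937). The TRBD1 share of TRBJ2 entries was 51.8% ± 0.605 in CNS4KO and 52.7% ± 0.281 in CNS4Flox (exact permutation test, p = 0.0238, adjusted p = 0.124), with overlapping libraries.

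The other 3 values were clone sizes. CNS4KO replicates 1 to 5 had mean counts per TRBD1 entry of 1.73, 1.40, 1.54, 1.66 and 1.40, and CNS4Flox replicates 1 to 5 of 1.16, 1.26, 1.34, 1.20 and 1.21. Per TRBD2 entry they were 1.59, 1.36, 1.51, 1.65 and 1.37 in CNS4KO and 1.16, 1.25, 1.35, 1.19 and 1.22 in CNS4Flox. Entries without a D match averaged 1.60 ± 0.0996 and 1.31 ± 0.0923. In all 3 classes every CNS4KO library lay above every CNS4Flox library, with differences of 0.313 for TRBD1, 0.265 for TRBD2 and 0.293 without a D match. Without entries of count 1 the groups overlapped for TRBD2, at 3.02 ± 0.271 and 2.51 ± 0.168, and for entries without a D match, at 2.97 ± 0.262 and 2.54 ± 0.176, but not for TRBD1. Whether the differences of the 3 classes differ from each other was not tested. The largest TRBD1 clone of a library had a count of 217 ± 183 in CNS4KO and 30.6 ± 10.5 in CNS4Flox, and the largest TRBD2 clone 173 ± 134 and 63.6 ± 50.0.

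Trimming, added bases, loop length and frame use did not pass the test between the groups. Matched length was 5.51 ± 0.0211 and 5.52 ± 0.0326 bases for TRBD1 and 7.78 ± 0.0555 and 7.76 ± 0.0448 for TRBD2 in CNS4KO and CNS4Flox. CDR3 length was 13.6 ± 0.0248 and 13.6 ± 0.00852 residues for TRBD1 and 14.2 ± 0.0360 and 14.2 ± 0.00630 for TRBD2. The aspartate-tryptophan frame of TRBD2 was used in 36.6% ± 0.354 of CNS4KO and 35.9% ± 0.620 of CNS4Flox entries (exact permutation test, p = 0.0556, adjusted p = 0.241). TRBD1 made up 68.7% ± 3.43 and 65.1% ± 3.05 of D-matched entries among the 100 most abundant (exact permutation test, adjusted p = 0.351).

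The 36 combinations of a D class (TRBD1, TRBD2 or no match) with a TRBJ gene were also compared by their summed counts. Of 35 with enough counts, 0 passed an adjusted p of 0.05 in edgeR's quasi-likelihood test, a background of 0% called. At an unadjusted p under 0.05 edgeR gave 2, and DESeq2 called 1 at its adjusted p. The 2 pairs with the smallest p in edgeR were TRBD2 with TRBJ1-1 and TRBD1 with TRBJ1-6. Of all TRB counts, TRBD2 with TRBJ1-1 took 0.742% ± 0.0756 in CNS4KO libraries and 0.902% ± 0.0607 in CNS4Flox libraries, a log2 fold change of -0.27 (SE 0.09, edgeR adjusted p = 0.230, 0.115 to 0.676 over the alternatives). TRBD1 with TRBJ1-6 took 3.58% ± 0.194 and 3.23% ± 0.144, a log2 fold change of 0.15 (SE 0.05, edgeR adjusted p = 0.230, 0.0246 in DESeq2 to 0.676 over the alternatives). Counted by distinct entries in place of counts, 0 of 35 passed in edgeR, again 0% called.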

How the data were processed

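Per the labels' protocols, TCR alpha and beta transcripts were reverse transcribed from total RNA with a template switch, amplified by PCR and sequenced. The authors deposited 1 clonotype table per library. Per the file headers, it gives a whole-number count, a fraction (the deposited count over the library's total), the CDR3, gene names and match positions. Whether counts are reads or molecules, and which caller made them, is not given in the sources used here; the build is mm10, per the submitters' processing notes. The deposited counts were used as they stand, and the deposited fraction was not tested. Without molecular identifiers named, intervals and counts cover counting error only.

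TRB entries were chosen by 10 CDR3 ends; alpha entries by a list of 3-residue ends written from general knowledge after the tables were seen, and 3528 entries with neither end were left out. J names were used as deposited, except for the TRBJ1-6 end. Matched length was D end minus D start plus 1. Group values were tested with exact permutation tests, within-library differences with exact sign-flip tests over 1024 patterns, and D-J counts with edgeR's quasi-likelihood test (library size the TRB total, no TMM, at least 10 counts in at least 5 libraries). Replicates were numbered in the order of the samples. Alternatives were weighting by count, no count-1 entries, merging by CDR3, thinning to 19199 counts (20 draws), at least 7 matched bases, parts found in a single D gene, leaving out TRBJ1-6 entries, the library pair or each library, and DESeq2, TMM, no filter or distinct entries for D-J pairs. Added after seeing the data were forward parts only, parts carried on towards J, and parts with the 6 bases around position 6. Named J genes, D-J pairs (past the threshold, otherwise the 2 with the smallest p) and example sequences (the 2 in most libraries, ties by mean share, and the most abundant of each group) followed a set rule; the members and lists were chosen with earlier results of these data known. The distance and frame arithmetic, the permutation and sign-flip tests and the edgeR fit were tested on simulated data. The deposited D naming, its ties and the stop before J were not part of that. Values and figures were made in Python 3.11.15 with pandas 2.3.3, numpy 2.4.6 and matplotlib 3.10.9, intervals with scipy 1.17.1. Count models were run in R 4.3.3 with edgeR 4.0.16, or DESeq2 1.42.0 as the alternative.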

Additional observations from a re-analysis of the deposited data

Results flagged for a closer look

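Of 52 groups of 5 values, 4 held a library set far apart from the other 4 by Dixon's ratio of gap to range, which chance does in about 1 of 20 groups. The TRBD2 share of D-matched TRBJ1 entries was 9.51% in CNS4Flox replicate 3 and 8.77% to 8.96% in the other CNS4Flox libraries. The TRBJ2 share of entries without a D match was 66.0% in CNS4KO replicate 2, against 60.4% to 61.3% in its group. The same share was 58.8% in CNS4Flox replicate 4, against 63.7% to 65.6%. In that library the mean CDR3 length of entries without a D match was also apart, 11.73 residues against 11.64 to 11.65.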

How the results depend on the processing

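All 26 values compared between CNS4KO and CNS4Flox stayed short of the threshold under every alternative (adjusted p 0.0516 to 1), which says little about stability, since so few libraries can hardly pass. Over these and the uncalled clone size difference between TRBJ1 and TRBJ2, the sign turned 44 times, in 18 results. Of 13 within-library differences past the threshold, those in CDR3 length, in TRBD1 against TRBD2 matched length and in TRBD2 share between J clusters kept direction and call throughout. For matched length this says little, since every alternative kept the D names and the unequal gene lengths. Values below are first minus second class, and the cause was not tested unless named. With at least 7 matched bases, TRBD1 minus TRBD2 was 0.0498 bases on the V side and -0.0170 on the J side and 0.00743 in mean count; TRBJ1 minus TRBJ2 was -0.0563 in matched length and -0.0442 on the V side; TRB minus TRA was 35.5 points in D-matched share. With parts found in a single D gene, TRBD1 minus TRBD2 was -0.0172 (V side), -0.0192 (J side) and 0.0207 (mean count), and TRBJ1 minus TRBJ2 0.00315 (V side). With forward parts only, these were -0.0180 (J side), 0.0250 (mean count) and 0.00651 (V side), and TRB minus TRA 18.8 points. With the 6 bases around position 6, TRBD1 minus TRBD2 was 0.00358 (V side), 0.0311 (J side) and 0.0213 (mean count), TRBJ1 minus TRBJ2 -0.0756 (matched length) and -0.0690 (V side), and TRB minus TRA 20.8 points. Keeping entries with a mismatched J name, whose J start belongs to another gene, gave TRBJ1 minus TRBJ2 0.881 on the J side. The TRBD1 minus TRBD2 mean count was 0.0176 after thinning, 0.0302 without CNS4KO replicate 5 and CNS4Flox replicate 3 together, -0.0630 without entries of count 1, and 0.0196 to 0.0342 when each library was left out; the no-match minus matched mean count was -0.00844 without entries of count 1. D-J pairs past the threshold numbered 1 with DESeq2 and 0 with each other setting. No paired analysis was possible because the labels give no replicate numbers. Depth of 19199 to 34833 TRB counts, mostly entries of count 1, limits the clone size values.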
